A study of Mus musculus with 36 samples.

Results

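The integrin genes described here are 10 genes that encode integrin subunits, taken by symbol from the 36172 gene entries of the deposited table: Itgam, Itgb2, Itgal, Itgb1, Itgb5, Itgav, Itga6, Itga4, Itga9 and Itgb3. Itgax and Itgb8 were left out. Levels were measured by polyA RNA sequencing of the hippocampus of Cx3cr1-NuTRAP mice, in which cre, inducible and driven by the Cx3cr1 promoter, turns on a ribosome tag in microglia and their macrophage relatives. Input is RNA of the whole tissue lysate, and TRAP (translating ribosome affinity purification) is the RNA pulled down with the tagged ribosomes. The study asked how the age at which cre was induced bears on the pulldown and on the age changes that can be detected. All animals carried the same Cx3cr1-NuTRAP genotype. Young inputs came from 10 early-induced mice aged 6 months (5 females, 5 males). Old early-induced inputs came from 12 mice aged 22 months (7 females, 5 males). Old late-induced inputs came from 7 mice aged 22 months (5 females, 2 males), and the 7 TRAP libraries came from the same 7 mice. Pulldowns from mice induced early were not analysed here, so age was compared in whole tissue only. Each input came from a separately numbered animal. The Cx3cr1 promoter does not separate microglia from the macrophages at brain borders.

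Integrins are heterodimers of an alpha and a beta subunit that span the plasma membrane and hold cells to matrix proteins or to other cells. Talins and kindlins bind the beta tail inside the cell and switch the receptor to its active form. Integrins with the beta-2 chain are restricted to leukocytes, of which microglia are the resident ones in the brain. Integrins with alpha-v or beta-1 chains occur on many brain and vessel cells.

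The libraries held between 12.9 and 20.4 M estimated counts each. Levels are given as CPM, the usual depth-scaled count, here on TMM effective library sizes. Cx3cr1, the gene whose promoter drives cre, lay between 32.3 and 44.5 CPM in the old late-induced inputs and between 579 and 908 CPM in TRAP. All 24 genes of a microglia list were higher in TRAP, with a median log2 fold change of 4.28, and so were all 8 genes of a border macrophage list (median 3.83) and all 8 of an endothelial list (median 1.15). Lists of astrocytes and oligodendrocytes were lower for all 8 genes each, with medians of -0.59 and -1.34, and 4 of 8 neuronal genes were lower, Snap25, Syt1, Tubb3 and Stmn2 (list median -0.22). The summed level of 5 choroid plexus genes ranged from 47.3 to 4084 CPM over the inputs and from 24.8 to 1235 CPM over the TRAP libraries, and its part in the results below was not tested. Ly6g, a neutrophil gene, Gp6, a platelet gene, and Acta2, a smooth muscle gene, were at 0 in all 36 libraries.

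Promoter windows of 250 bases before the start site were found in RefSeq (GRCm38.p6) for 6 of the 10 genes, Itgam, Itgb1, Itgb5, Itgav, Itga4 and Itga9. Those of 2 genes strongly enriched in TRAP (Itgam and Itgb5) and of the 2 with the smallest TRAP to input ratios (Itgav and Itga4) are shown for comparison with the values that follow. They lie on the plus strand at chr7:128062390-128062639 for Itgam, chr16:33829415-33829664 for Itgb5, chr2:83724147-83724396 for Itgav and chr2:79255176-79255425 for Itga4. Capitals mark GAGGAA, the core recognised by the myeloid factor PU.1, on either strand (TTCCTC is the same core on the other strand).
Itgam: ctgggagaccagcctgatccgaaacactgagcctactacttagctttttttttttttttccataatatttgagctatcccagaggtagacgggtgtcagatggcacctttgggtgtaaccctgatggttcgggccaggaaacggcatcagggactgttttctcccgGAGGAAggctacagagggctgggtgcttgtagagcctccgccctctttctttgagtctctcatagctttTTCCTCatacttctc
Itgb5: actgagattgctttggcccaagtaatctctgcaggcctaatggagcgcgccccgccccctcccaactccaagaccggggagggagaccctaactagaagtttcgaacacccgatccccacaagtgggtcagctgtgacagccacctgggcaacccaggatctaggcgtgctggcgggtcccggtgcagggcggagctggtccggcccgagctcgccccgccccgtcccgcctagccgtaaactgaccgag
Itgav: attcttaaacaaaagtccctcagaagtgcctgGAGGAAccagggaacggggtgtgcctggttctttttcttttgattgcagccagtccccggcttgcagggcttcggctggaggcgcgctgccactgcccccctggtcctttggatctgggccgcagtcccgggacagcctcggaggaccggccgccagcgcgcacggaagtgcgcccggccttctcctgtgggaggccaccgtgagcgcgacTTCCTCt
Itga4: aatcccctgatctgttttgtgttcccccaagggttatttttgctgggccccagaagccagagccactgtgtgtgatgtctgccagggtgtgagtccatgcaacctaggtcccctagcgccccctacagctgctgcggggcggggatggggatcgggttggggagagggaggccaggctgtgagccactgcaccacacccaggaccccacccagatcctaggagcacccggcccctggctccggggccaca
The core occurred at 84 and 15 bases before the start of Itgam and at 218 and 7 bases before that of Itgav. Itgb1 had it once, 9 bases before its start. No match was present in the windows of Itgb5, Itga4 and Itga9, and the Itga9 window belongs to a start site 104983 bases from the deposited gene start. The Itgav window lies directly before the deposited gene start, while the RefSeq gene model of Itgav begins 2094 bases upstream of it. Across all RefSeq promoter windows of this length, 23.3% of 32851 held the core on one strand or the other. A match is a description of the letters only.

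The pulldown was first compared with the input of the same old late-induced animals. Of the 10 integrin genes, 9 were higher in TRAP and 0 lower at an adjusted p under 0.05 (edgeR's quasi-likelihood test, Benjamini-Hochberg adjustment over 14596 genes). Over all genes tested, 59.2% were called in either direction, 30.4% higher and 28.8% lower. The median log2 fold change was 2.30 over the 10 genes and -0.02 over all genes tested. Ranges of TRAP and input did not overlap for 7 of the 10 genes, Itgam, Itgb2, Itgb1, Itgb5, Itga6, Itga9 and Itgb3, against 20.3% of all genes tested with TRAP wholly above input. In bulk RNA, fewer cells of a type and less RNA per cell cannot be told apart. Upper quartile scaling moved the median of all genes to -0.16, and 34% of its calls were higher ones in place of 51.4%. Scaling by library size alone gave -0.13 and 38.3%. Changes of this size depend on the scaling.

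**Figure D1:**
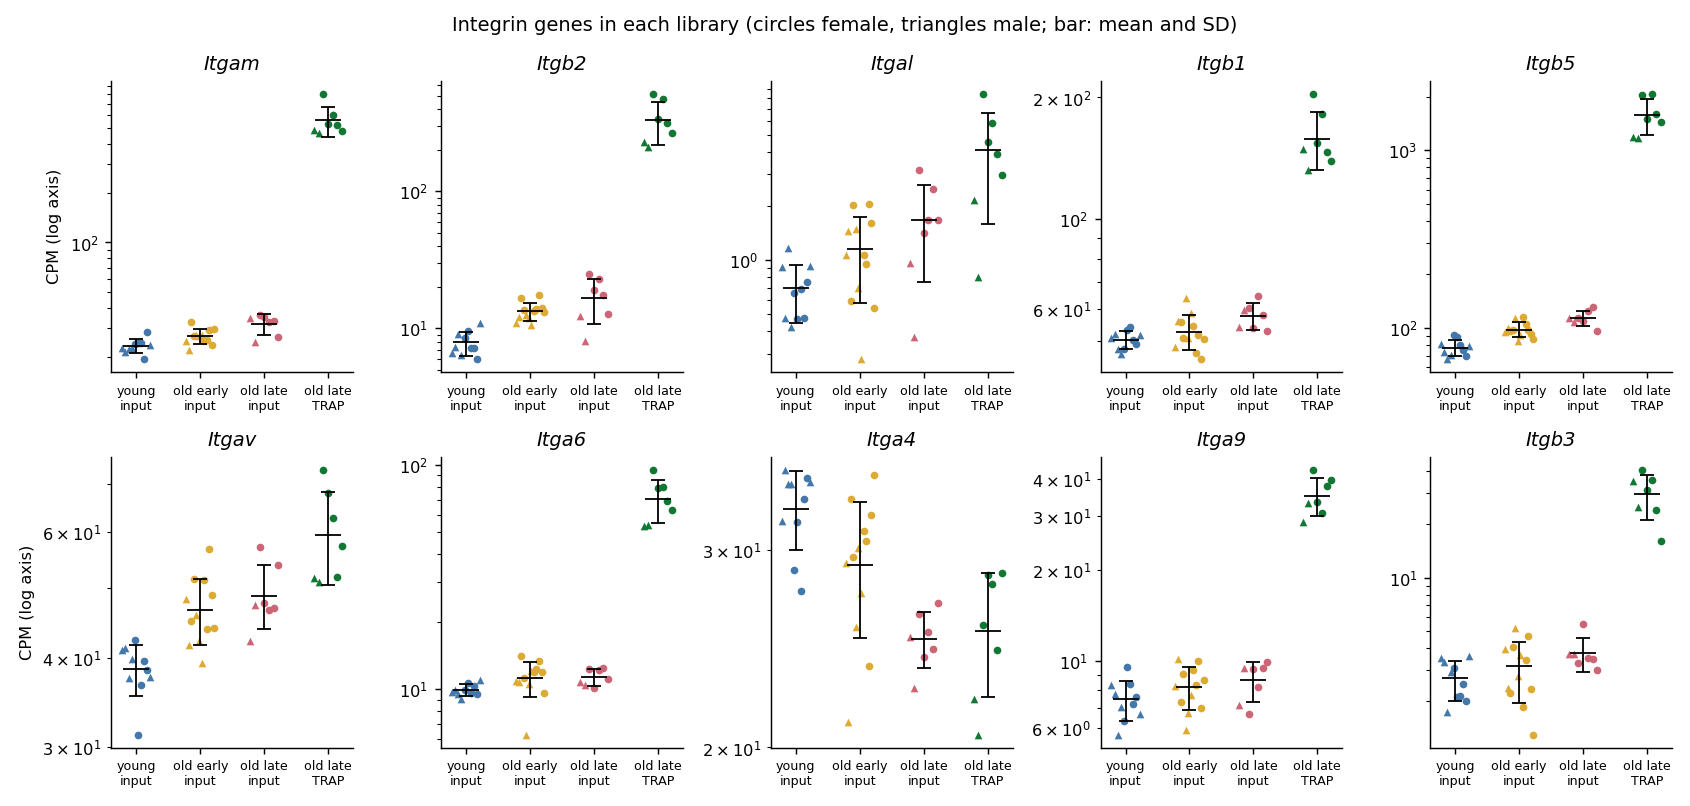
CPM of the 10 integrin genes (log axis, a separate scale for each gene) in every library of the 4 groups, with females as circles and males as triangles; the bar gives the mean and SD. TRAP lies above every input for 7 genes, whereas Itga4 overlaps between TRAP and old late-induced input and has its highest values in young and old early-induced input.

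Itgam (identifier 16409, chr7:128062640-128118491) encodes CD11b, the alpha chain of complement receptor 3, which binds complement-tagged material. Its level in the old late-induced inputs was 24.7, 33.5 and 36.3 CPM (lowest, median and highest of 7), and in TRAP it was 464, 522 and 799 CPM. Every TRAP library lay above every input. The TRAP to input ratio within an animal ranged from 13.9 to 22 with a median of 18.1, and the log2 fold change was 4.09 ± 0.12 (SE; adjusted p = 3.01e-14). Cx3cr1 had ratios of 13.9 to 21.5 in the same animals.

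Itgb2 (identifier 16414, chr10:77530348-77565674) encodes CD18, the beta chain that pairs with CD11b. Input values were 8.12, 17.4 and 24.8 CPM and TRAP values 210, 313 and 511 CPM. The ranges were apart, and both the lowest input and the lowest TRAP value belonged to the same male. Ratios within an animal ran from 17.8 to 25.9, and the log2 fold change of 4.31 ± 0.18 (SE; adjusted p = 1.42e-12) was the highest of the 10 genes. It lay within the 2.93 to 4.68 covered by the microglia list.

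Itgal (identifier 16408, chr7:127296260-127335137) encodes CD11a, the other common partner of CD18, which with it forms LFA-1 on lymphocytes. It rested on 6 to 56 counts per input library and 10 to 137 per TRAP library. Its levels were 0.372, 1.67 and 3.17 CPM in input and 0.802, 3.91 and 8.41 CPM in TRAP. These ranges overlapped, although TRAP exceeded input in all 7 animals, by 1.56- to 3.47-fold. The log2 fold change was 1.24 ± 0.29 (SE; adjusted p = 0.00137). The summed level of 9 T and B cell genes was 1.98 to 4.7 CPM in these inputs and 1.72 to 3.87 CPM in TRAP, with Ms4a1, a gene of B cells, at 0 in all TRAP libraries. Of the 2 of these genes tested, Lck, a T cell kinase gene, was lower in TRAP (log2 fold change -0.73, adjusted p = 0.00728). Cd8a, a T cell coreceptor gene, was not called (-0.33, adjusted p = 0.555). The part of T and B cells in the Itgal values was not tested.

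Itgb5 (identifier 16419, chr16:33829665-33949338) encodes the beta-5 chain, which pairs with alpha-v and binds vitronectin. It had 95.6, 113 and 130 CPM in input and 1175, 1505 and 2063 CPM in TRAP. All TRAP libraries were above all inputs, and the 2 male TRAP libraries were the lowest. The log2 fold change was 3.75 ± 0.12 (SE; adjusted p = 4.51e-14), with ratios of 10.4 to 18 within an animal.

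Itgav (identifier 16410, chr2:83724397-83806916) encodes alpha-v, the only alpha chain with which beta-5 is known to pair. Its levels were 42.1, 47.4 and 57.1 CPM in input and 51, 57.3 and 73.2 CPM in TRAP. The ranges overlapped, and TRAP exceeded input by 1.06- to 1.42-fold in all 7 animals. The log2 fold change was 0.26 ± 0.08 (SE; adjusted p = 0.00801), but the call was lost under upper quartile scaling (0.11; adjusted p = 0.173) and under library size alone (0.15; adjusted p = 0.0727).

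Itgb3 (identifier 16416, chr11:104608000-104670471) encodes the beta-3 chain, another partner of alpha-v and a main integrin chain of platelets. Input values were 2.99, 3.51 and 5.47 CPM and TRAP values 16.2, 31.2 and 40.7 CPM. The ranges did not overlap, and ratios within an animal spread from 5.4 to 12.4. The log2 fold change was 2.97 ± 0.20 (SE; adjusted p = 8.98e-10). A list of 5 platelet genes summed to 12.4 to 17.6 CPM in input and 16.2 to 25 CPM in TRAP. Of the 3 platelet genes tested, 2 were higher in TRAP, Gp9 (log2 fold change 4.65) and Gp1ba (1.04). The third, Gp1bb, was not called (-0.09, edgeR adjusted p = 0.496), and Ppbp was at 0 in every TRAP library. Gp9 passed the count filter in this fit and in no comparison of inputs, so its direction was largely set by the filter. Gp1ba did not have an average log2 CPM over 1. The part of platelets in the Itgb3 values was not tested.

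Itgb1 (identifier 16412, chr8:128685654-128733579) encodes the beta-1 chain, shared by the largest group of integrins. It had 52.9, 58.1 and 64.8 CPM in input and 132, 149 and 204 CPM in TRAP, with no overlap. The log2 fold change was 1.43 ± 0.09 (SE; adjusted p = 2.39e-10), and the ratios of 2.22 to 3.37 were close together. The endothelial genes, whose cells also carry beta-1 integrins, summed to 76.8 to 116 CPM in input and 179 to 294 CPM in TRAP, and their part in the values of Itgb1, Itga6 and Itga9 was not tested.

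Of the alpha chains that pair with beta-1, Itga6 (identifier 16403, chr2:71787083-71856758) encodes a laminin receptor chain. It had 10.1, 11.1 and 12.4 CPM in input and 53.5, 69 and 94.9 CPM in TRAP. Groups did not overlap, ratios were 4.95 to 7.76, and the log2 fold change was 2.60 ± 0.10 (SE; adjusted p = 5.35e-13). Itga9 (identifier 104099, chr9:118606709-118901003), whose product binds tenascin-C and osteopontin, had 6.68, 9.41 and 9.94 CPM in input and 28.7, 33.4 and 42.7 CPM in TRAP. Its ranges were apart as well, and its log2 fold change was 2.01 ± 0.11 (SE; adjusted p = 4.23e-11).

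Itga4 (identifier 16401, chr2:79255426-79333114) encodes the alpha-4 chain of VLA-4, the receptor for VCAM-1 on leukocytes. It had 22.6, 25.1 and 26.9 CPM in input and 20.5, 25.7 and 28.7 CPM in TRAP. The TRAP range covered the input range, and TRAP was above input in 3 of 7 animals, with ratios of 0.881 to 1.18. The fitted fold change was 0.999 with an SE of 0.07 on the log2 scale (adjusted p = 0.993), and over the alternative settings the log2 fold change ran from -0.14 to 0.07 with no call.

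**Figure D2:**
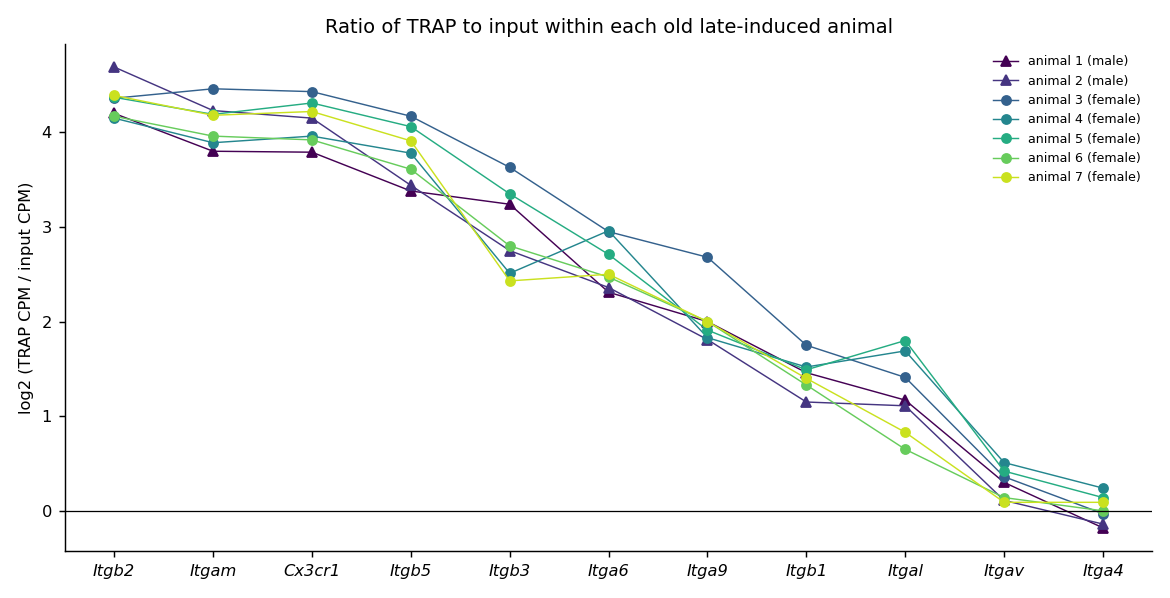
Log2 ratio of TRAP to input CPM for the 10 integrin genes and Cx3cr1 in each of the 7 old late-induced animals, one line per animal (triangles male, circles female; the horizontal line at 0 marks equal levels). Itgb2, Itgam and Itgb5 form the top with Cx3cr1, and Itga4 lies on both sides of 0.

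Subunits known to pair were also set against each other as count ratios inside a library, where no scaling between libraries enters. Itgb5 over Itgav ranged from 1.71 to 2.84 across the 29 inputs and from 22.2 to 32.9 across the 7 TRAP libraries. The ranges were far apart. Itgb1 over Itga4 ranged from 1.96 to 2.63 in the old late-induced inputs and from 4.86 to 7.92 in TRAP, again apart. This holds for the Itga4 pair only. The other beta-1 partners described above, Itga6 and Itga9, had larger TRAP log2 fold changes (2.60 and 2.01) than Itgb1 (1.43). Itgb2 over Itgam, the subunits of complement receptor 3, was 0.329 to 0.695 in the old late-induced inputs and 0.453 to 0.79 in TRAP and overlapped. These ratios were not tested.

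**Figure D3:**
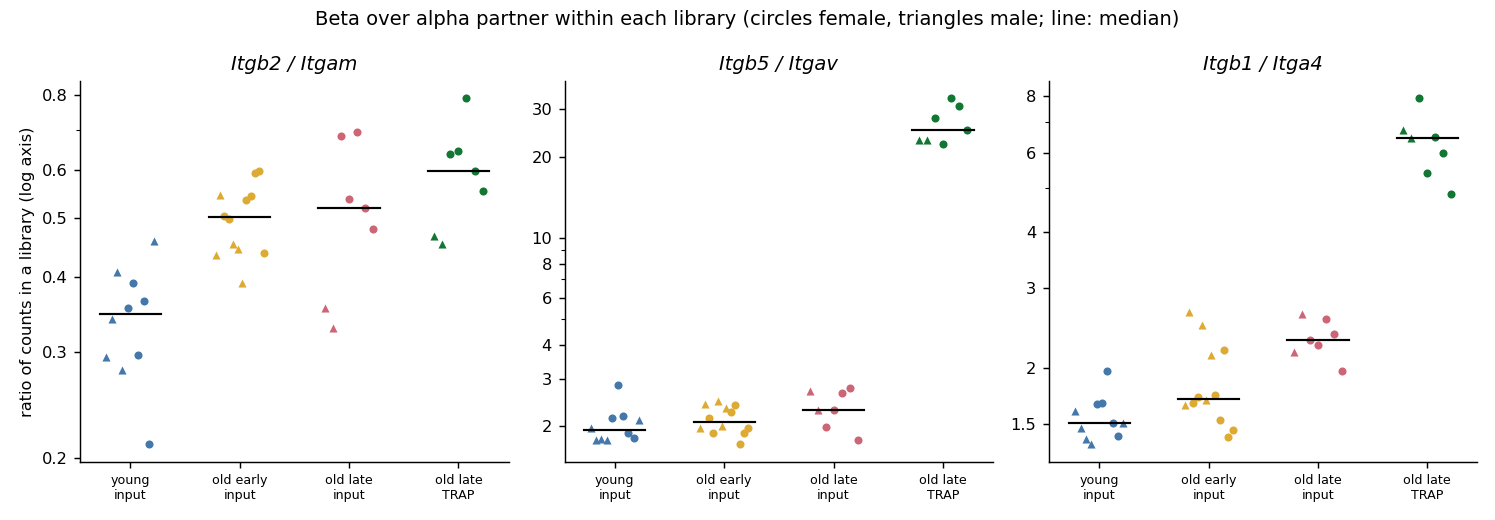
Ratio of the counts of a beta subunit to those of an alpha partner within each library (log axis) for Itgb2 over Itgam, Itgb5 over Itgav and Itgb1 over Itga4 in the 4 groups, with females as circles, males as triangles and the median as a line. Itgb5 over Itgav lies at 1.71 to 2.84 in all inputs and at 22.2 to 32.9 in TRAP.

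Levels between genes were compared per kilobase of exon. In the old late-induced inputs, Itgb5 was highest with a median of 33.4 CPM per kb, followed by Itgb1 with 15.2, and neither range overlapped the next gene's. Itgam (6.79 CPM per kb), Itgav (6.72) and Itgb2 (5.86) followed with overlapping ranges. Itga4 (2.57) overlapped both Itgb2 above it and Itga6 (2.54) below it. Itga9 (1.32) and Itgb3 (0.606) overlapped at the edge, and Itgal (0.261) came last. In TRAP, Itgb5 was again first with 444 CPM per kb. Itgam (106) and Itgb2 (105) overlapped and now stood above Itgb1 (39.1), Itga6 (15.8) and Itgav (8.12). Itgb3 (5.39) and Itga9 (4.67) overlapped, and Itga4 (2.63) and Itgal (0.613) were lowest. In young inputs the order began Itgb5 (22.7), Itgb1 (13.3), Itgav (5.53) and Itgam (4.73), with overlap between the latter pair. Old early-induced inputs began with the same 4 genes, at 28.6, 13.5, 6.44 and 5.48 CPM per kb.

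**Figure D4:**
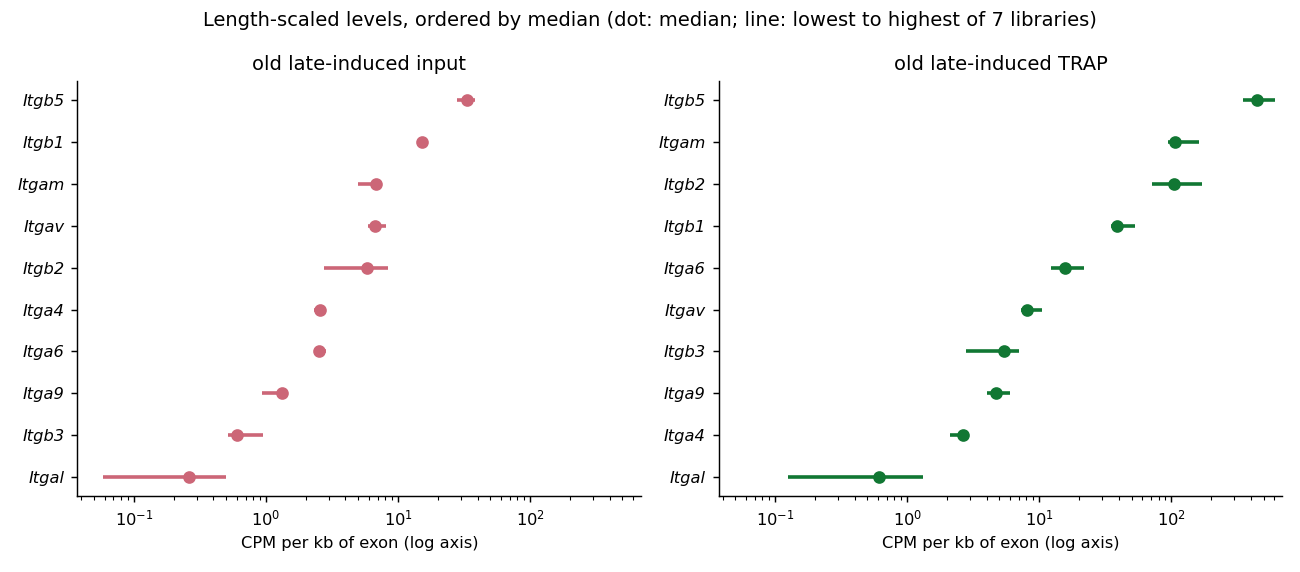
CPM per kilobase of exon (log axis) of the 10 integrin genes in the input and TRAP libraries of the 7 old late-induced animals, ordered by median; the dot is the median and the line runs from the lowest to the highest library. Itgb5 leads both panels, and Itgam and Itgb2 pass Itgb1 in TRAP.

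Age was compared at early induction first. Of the 10 integrin genes, 4 were higher and 1 lower in the old early-induced inputs than in the young inputs (edgeR, adjusted p under 0.05 over 14948 genes), where 25.6% of all genes tested were called, 13% higher and 12.6% lower. The median log2 fold change was 0.21 over the 10 genes and 0.01 over all genes. In the same comparison 23 of 24 microglia genes were higher (median 0.47) and 0 of 8 border macrophage genes were called (median -0.06). Of the oligodendrocyte genes, 7 of 8 were higher (median 0.34). Their part in the age differences of the integrin genes was not tested. None of the 10 genes had ranges that did not overlap, against 1.86% of all genes tested.

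Itgb2 showed the largest of these increases. It had 5.99, 7.27 and 10.9 CPM in young inputs and 10.7, 13.3 and 17.4 CPM in old early-induced inputs. Only the highest young library lay inside the old range, above 2 old libraries, and the log2 fold change was 0.72 ± 0.13 (SE; adjusted p = 1.26e-04). Itgam had 19.6, 23.3 and 28.4 CPM in young and 22.3, 27 and 32.9 CPM in old early-induced inputs, with wide overlap and a log2 fold change of 0.19 ± 0.07 (SE; adjusted p = 0.0355). The Itgam call was lost without any 1 of 9 libraries, young replicates 2, 3 and 8 and old early-induced replicates 3, 5, 6, 7, 10 and 12 (adjusted p from 0.0501 to 0.105). It was also lost in females only (0.19; adjusted p = 0.24) and without the count filter (0.18; adjusted p = 0.051).

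Inside a library, Itgb2 over Itgam was 0.211 to 0.458 in young inputs and 0.391 to 0.599 in old early-induced inputs, with medians of 0.347 and 0.501. The ranges overlapped in part. Itgam over Cx3cr1 was 0.806 to 1.1 in young and 0.608 to 0.946 in old early-induced inputs, with medians of 0.924 and 0.78. Itgal, at 0.421 to 1.16 CPM in young and 0.28 to 2.05 CPM in old early-induced inputs, had a log2 fold change of 0.67 ± 0.31 (SE) and did not pass (adjusted p = 0.112). The T and B cell genes summed to 1.56 to 3.27 CPM in young and 2.1 to 6.08 CPM in old early-induced inputs. Of the 2 tested, both were higher, Cd8a (log2 fold change 0.94, adjusted p = 0.0458) and Lck (0.50, adjusted p = 0.0297).

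Among the alpha-v integrins, Itgb5 had 67.1, 77.1 and 90.9 CPM in young and 84.5, 96.9 and 116 CPM in old early-induced inputs. The old values were shifted upwards with a small overlap, and the log2 fold change was 0.33 ± 0.06 (SE; adjusted p = 8.11e-05). Itgav had 31.2, 39 and 42.3 CPM in young and 39.3, 45.5 and 56.7 CPM in old early-induced inputs, with a log2 fold change of 0.26 ± 0.06 (SE; adjusted p = 9.95e-04). Itgb3 did not pass, at 1.75 to 3.61 CPM against 1.3 to 5.19 CPM (log2 fold change 0.24; adjusted p = 0.351).

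Itga4 was the gene that was lower with age. It had 27.6, 33.8 and 35.4 CPM in young and 21.1, 29.9 and 35 CPM in old early-induced inputs, with the old range covering most of the young one. The log2 fold change was -0.17 ± 0.07 (SE; adjusted p = 0.0467). This call was lost without any 1 of 15 libraries (adjusted p from 0.0506 to 0.0854): young replicates 1, 2, 3, 4, 8, 9 and 10, old early-induced replicates 1, 2, 5, 7, 9 and 10, and old late-induced replicates 2 and 6, which share the estimate of the spread. It was lost too under upper quartile scaling (-0.16; adjusted p = 0.0618), in females only (-0.02; adjusted p = 0.902), without the count filter (-0.18; adjusted p = 0.0538), without sex (-0.17; adjusted p = 0.0568) and with only the compared groups in the fit (-0.18; adjusted p = 0.0641).

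The other beta-1 partners did not pass in this comparison. Itgb1 was at 46.5 to 54.3 CPM in young and 45.3 to 63.8 CPM in old early-induced inputs (log2 fold change 0.07; adjusted p = 0.326). Itga6 had 9.08 to 11.1 CPM and 6.3 to 14 CPM (0.16; adjusted p = 0.142), and Itga9 had 5.71 to 9.52 CPM and 5.93 to 10.1 CPM (0.13; adjusted p = 0.347). Old early-induced replicate 5, a male, held the lowest Itga6 and Itga9 values and the highest Itgb1 and Itgb3 values of its group. Without it, Itga6 was called higher (0.21; adjusted p = 0.0128). Over the group as a whole, the summed level of 3 red cell genes reached 1409 CPM within the old early-induced inputs, where the median was 162 CPM. Which library held that maximum is not given here, and its part in the values above was not tested.

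The old late-induced inputs were then set against the same young inputs, so that both sets of values share their controls. Every young mouse was induced early, so age and induction age change together here and cannot be told apart in the calls that follow. Here 7 of the 10 integrin genes were higher and 1 lower, where 34.5% of all genes tested were called, 17% higher and 17.5% lower. The median log2 fold change was 0.37 over the 10 genes and 0.01 over all genes. All 24 microglia genes were higher (median 0.67), as were all 8 oligodendrocyte genes (median 0.49). Ranges did not overlap for Itgb5 and Itga4, against 6.84% of all genes tested in either direction.

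Itgb5 had 95.6, 113 and 130 CPM in the old late-induced inputs, all above the young maximum of 90.9 CPM, with a log2 fold change of 0.54 ± 0.07 (SE; adjusted p = 4.96e-07). Itga4, at 22.6, 25.1 and 26.9 CPM, lay wholly below the young minimum of 27.6 CPM, with a log2 fold change of -0.41 ± 0.08 (SE; adjusted p = 1.48e-04). Both genes kept their call in every alternative fit of this comparison.

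Itgb2 (log2 fold change 0.99 ± 0.15, SE; adjusted p = 8.51e-06), Itgam (0.42 ± 0.08, SE; adjusted p = 8.89e-05) and Itgal (1.14 ± 0.35, SE; adjusted p = 0.0113) were all higher. For each of these leukocyte integrin genes the lowest old late-induced library lay below the highest young one. That library was the same male in all 3 cases, with 8.12 CPM of Itgb2, 24.67 CPM of Itgam and 0.3719 CPM of Itgal. Itgav (0.32 ± 0.07, SE; adjusted p = 4.31e-04) and Itgb1 (0.20 ± 0.06, SE; adjusted p = 0.00714) were higher as well. The Itgb1 call was lost in females only (0.18; adjusted p = 0.0531).

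The Itgal change was larger in females only (1.77 ± 0.37, SE; adjusted p = 0.00205). Its levels were 0.467 to 0.749 CPM in young and 1.41 to 3.17 CPM in old late-induced females, with no overlap. The 2 old late-induced males had 0.372 and 0.961 CPM, neither above the highest young male at 1.16 CPM. The T and B cell genes summed to 1.98 to 4.7 CPM in old late-induced inputs and 1.56 to 3.27 CPM in young ones. Of the 2 tested, Lck was higher (log2 fold change 0.53, adjusted p = 0.0343), and Cd8a had 0.98 (adjusted p = 0.0519). Their part in the Itgal values was not tested.

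Itgb3 was called higher with a log2 fold change of 0.54 ± 0.21 (SE; adjusted p = 0.0448), from 30 to 62 counts per young library and 50 to 89 per old late-induced library. The call was lost without any 1 of 16 libraries (adjusted p from 0.0503 to 0.143), old late-induced replicates 1, 2, 3, 4, 5 and 6, young replicates 3, 4, 6, 7, 8 and 9 and old early-induced replicates 1, 3, 7 and 11. Leaving out old late-induced replicate 4, which had 5.473 CPM, gave the smallest change (0.40). It was lost too in females only (0.65; adjusted p = 0.108), without sex (0.46; adjusted p = 0.0883) and without the count filter (0.53; adjusted p = 0.0567). Itga6 (0.15; adjusted p = 0.212) and Itga9 (0.18; adjusted p = 0.217) did not pass.

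**Figure D5:**
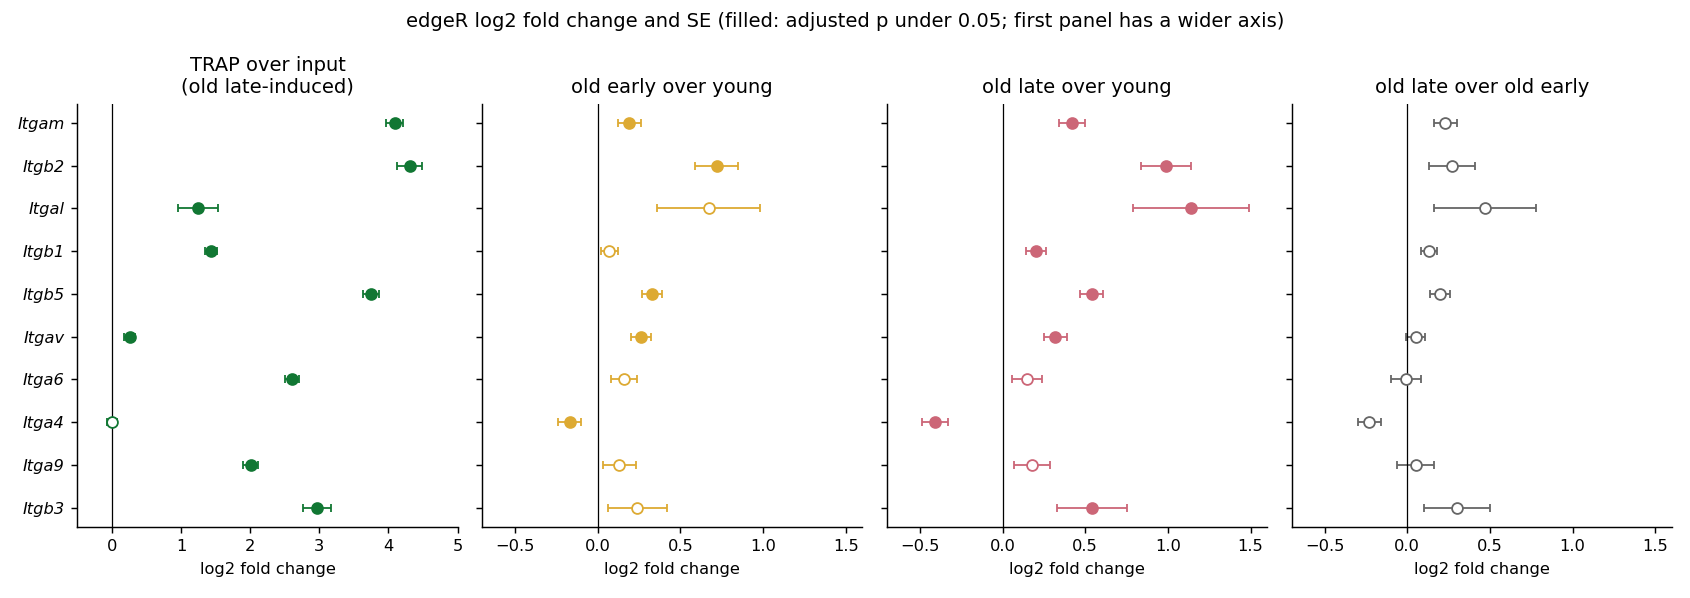
Log2 fold change and SE from edgeR of the 10 integrin genes in 4 comparisons (filled symbols: adjusted p under 0.05; the first panel has a wider axis). Itga4 is the gene below 0 in both comparisons with young inputs, and no gene is called between the old groups.

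Between the old groups, 0 of the 10 integrin genes were called by edgeR, DESeq2 or limma voom, where edgeR called 0.0334% of all genes tested. At an unadjusted p under 0.05 there were 4, Itgam (0.23 ± 0.07), Itgb1 (0.13 ± 0.05), Itgb5 (0.20 ± 0.06) and Itga4 (-0.23 ± 0.07; log2 fold changes with SE, late over early induction). Their adjusted p values were 0.203, 0.34, 0.203 and 0.203. Over all 14948 genes tested, 1736 had an unadjusted p under 0.05 by edgeR. The library numbers in the labels run from 1 to 23 in old early-induced, 25 to 37 in old late-induced and 39 to 57 in young inputs. Group and library number therefore cannot be told apart in any comparison of inputs.

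Levels were also set against the microglia genes of the same library, as log2 CPM minus the mean log2 CPM of the 24 genes. These genes were themselves higher in both old groups (medians 0.47 and 0.67), so a lower difference need not mean a lower CPM. For Itga4 this difference was 0.45 to 0.93 in young, -0.33 to 0.31 in old early-induced and -0.62 to 0.05 in old late-induced inputs, so both old groups lay below the young one. Itgb1 had 1.24 to 1.49, 0.64 to 1.21 and 0.69 to 1.16 in the same order, again with both old groups below, while the log2 fold changes of its CPM were 0.07 and 0.20. Itgam had 0.07 to 0.46, -0.25 to 0.11 and -0.25 to 0.2, with medians of 0.27, -0.09 and -0.03 and overlap at the edges. Itgb5, with 1.75 to 2.21, 1.62 to 2.07 and 1.59 to 2.03, overlapped between all 3. Itgb2 had -1.76 to -0.96, -1.26 to -0.76 and -1.7 to -0.59, with overlap. Medians of Itgav, Itga6, Itga9 and Itgb3 were also lower in both old groups than in young inputs, and those of Itgb2 and Itgal were higher. The share of all genes with both old groups below the young one is not given here. The order of Itga4 and Itgb1 is therefore a description only. In TRAP the difference was 1.24 to 1.48 for Itgb5, -1.21 to -0.65 for Itgb2 and -4.95 to -4.19 for Itga4.

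Sex was compared over all inputs within the same fit. By edgeR 0 of the 10 integrin genes differed, where 0.174% of all genes tested were called, and DESeq2 and limma voom also called 0. At an unadjusted p under 0.05 there was 1, Itgb2, lower in males (log2 fold change -0.31 ± 0.12, SE; adjusted p = 0.342). Over all 14948 genes tested, 1632 passed that unadjusted threshold, so 1 of 10 is near the share of all genes. In the old late-induced animals Itgb2 was 12.7 to 24.8 CPM in the 5 female inputs and 8.12 to 12.4 CPM in the 2 male inputs. TRAP values were 266 to 511 CPM in females and 210 to 227 CPM in males. The 2 males were thus below all females in both fractions, which come from the same animals. Itgal had this order too. Its inputs had 0.372 to 0.961 CPM in males and 1.41 to 3.17 CPM in females. Its TRAP values were 0.802 to 2.17 CPM and 2.98 to 8.41 CPM. Itgb5, Itga6, Itgav and Itga4 had this order in TRAP but not in input, and Itgam, Itgb1, Itga9 and Itgb3 in neither. For Itgb2, old early-induced inputs showed the same order, with 10.7 to 12.4 CPM in 5 males and 13.1 to 17.4 CPM in 7 females. Young inputs did not, with 6.38 to 10.9 CPM in males and 5.99 to 9.57 CPM in females. The share of all genes with males wholly below females is not given here. With 2 males in the old late-induced group, these orders are a description only and not a trait of the integrin genes. Whether the sex difference changes between the groups was not tested.

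Other genes of the integrin system were taken from 3 lists. The counts of all 3 are to be read against the shares of all genes tested. These were 30.4% higher and 28.8% lower in TRAP, and 13% higher and 12.6% lower with age at early induction. Of 15 further integrin subunits 12 were tested in the pulldown, 2 higher and 4 lower in TRAP (median log2 fold change -0.21). Itga5, the alpha chain of the fibronectin receptor, had 1.86 to 4.53 CPM in input and 7.8 to 26.3 CPM in TRAP (2.41 ± 0.20, SE; adjusted p = 1.80e-08). The other higher one was Itgae, whose chain binds E-cadherin on lymphocytes (1.82, adjusted p = 0.00119). Itgae did not have an average log2 CPM over 1. It passed the count filter in this fit and in no comparison of inputs, so its direction was largely set by the filter. Itgb4, the laminin-binding partner of alpha-6, had 17.5 to 24.5 CPM in input and 7.7 to 12.6 CPM in TRAP (-1.05 ± 0.12, SE; adjusted p = 8.86e-07). The remaining lower ones were Itgbl1 (-0.55), Itga8 (-0.44) and Itga3 (-0.34).

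With age at early induction 12 subunits were tested again, with Itgb6 in place of Itgae. Of these, 1 was higher, Itgb4 (0.36 ± 0.07, SE, adjusted p = 5.57e-04). Lower were 2, Itga10, which encodes a collagen receptor chain (-0.90 ± 0.21, SE; adjusted p = 0.00155), and Itga7, which encodes a laminin receptor chain (-0.45 ± 0.07, SE; adjusted p = 3.83e-05). Itga7 had 29.1 to 39.6 CPM in young and 15.4 to 30.1 CPM in old early-induced inputs. The median over the 12 was -0.05.

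Of 31 genes for integrin activation and adaptors, 30 were tested and 17 were higher and 7 lower in TRAP (median 0.45). Fyb, an adaptor of leukocyte integrin activation, had 3.72 to 7.93 CPM in input and 84.1 to 179 CPM in TRAP (log2 fold change 4.42 ± 0.12, SE). Fermt3, the kindlin of blood cells, had 5.1 to 9.03 CPM in input and 95.5 to 199 CPM in TRAP (4.28 ± 0.12, SE). Fermt2, the kindlin of other tissues, was lower (-0.56 ± 0.06, SE), as was Kank1, a talin-binding protein at adhesion sites (-0.52 ± 0.08, SE). The 2 kindlins therefore changed in opposite directions, with no overlap between TRAP and input for either.

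In old early-induced inputs 6 of these 30 genes were higher and 4 lower than in young (median 0.02), against 13% and 12.6% of all genes tested. The largest increases were those of Fyb (0.46; adjusted p = 0.014) and Apbb1ip, which links Rap1 to talin (0.39; adjusted p = 0.00704). The largest decreases were those of Pxn, the focal adhesion scaffold paxillin (-0.34; adjusted p = 7.79e-05), and Kank1 (-0.33; adjusted p = 6.50e-04), and the other lower genes were Vcl (-0.26), which encodes vinculin, and Tln2 (-0.15), a talin gene.

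Of 33 ligand genes 29 were tested, with 6 higher and 12 lower in TRAP (median -0.25). Tgfb1, whose latent form is released by alpha-v integrins, had 6.23 to 12.1 CPM in input and 126 to 223 CPM in TRAP (4.18 ± 0.13, SE; adjusted p = 4.03e-14). Spp1, which encodes osteopontin, had 7.68 to 29.2 CPM in input and 34.4 to 502 CPM in TRAP (3.30 ± 0.42, SE; adjusted p = 4.16e-06). The basement membrane genes Lama2 (-0.87 ± 0.09, SE) and Nid1 (-0.76 ± 0.19, SE) were lower.

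With age at early induction 10 of the 29 ligand genes were higher and 5 lower (median 0.17). Cyr61, a matrix protein that binds several integrins, had 3.33 to 9.15 CPM in young and 5.57 to 23.6 CPM in old early-induced inputs (1.43 ± 0.19, SE; adjusted p = 2.12e-06). Spp1 was higher as well (1.14 ± 0.24, SE; adjusted p = 8.09e-04). The collagen IV genes Col4a1 (-0.55 ± 0.09, SE; adjusted p = 3.33e-05) and Col4a2 (-0.55 ± 0.10, SE; adjusted p = 1.02e-04) were lower, as were the laminin genes Lamb1 (-0.25) and Lamc1 (-0.24) and the neuronal adhesion gene Icam5 (-0.18).

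For 8 of the integrin genes, those with a TRAP log2 fold change of at least 1, the genes most alike across all 36 libraries were found among 12979 candidates, by the root mean square difference of mean-centred log2 CPM. All libraries share the step from input to TRAP, which sets most of the profile, and no test was made. Itgam was nearest to Csf1r (0.13), a growth factor receptor of microglia, then to 4632428N05Rik (0.15) and Slco2b1 (0.17). Itgb2 was nearest to Mpeg1 (0.20), Cd68 (0.22) and C1qa (0.22), genes of phagocytes and complement. Genes near Itgb5 included Lpcat2 and Rnase4 (0.16 each). Itgb3 lay nearest to Lgmn and Hexa (0.39 each), genes of lysosomal enzymes, and to Pros1 (0.40). Itga6 was nearest to Plxdc2 (0.18), Itga9 to Snx18 (0.22) and Itgb1 to Nucb1 (0.10). Itgal had no near neighbour, with P2rx4 closest at 0.62. Candidates needed an average log2 CPM over 1, while Itgal rested on 4 to 137 counts per library. Its distance therefore cannot be told apart from the noise of low counts.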

How the data were processed

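PolyA RNA of mouse hippocampus was sequenced in 29 inputs and 7 TRAP libraries. Gene-level estimated counts were deposited in 1 table, in columns marked raw per the file headers, and 77.4% of the nonzero values were not whole. The submitters' processing notes name the build mm10 and DESeq2. Aligner, counter and strand handling are not given in the sources used here, so reads shared by overlapping genes or paralogs are uncertain. Coordinates are those of the deposited table.

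Counts were rounded. Genes were filtered with filterByExpr (minimum count 10) and tested in edgeR 4.0.16 (TMM, glmQLFit and glmQLFTest) in R 4.3.3, with Benjamini-Hochberg adjustment over all genes tested. All 10 genes passed the filter. TRAP against input was fitted on 14 libraries with sex, and age, induction and sex on 29 inputs with group and sex. CPM used TMM factors over 36 libraries, and log2 CPM a prior count of 2. Exon lengths came from the GENCODE annotation of the same assembly, and promoters from RefSeq. Code was tested on simulated data.

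The labels' animal numbers pair TRAP with input. Deviations from the group means correlated across genes within each of the 7 pairs (0.308 to 0.47), and the median for libraries of different animals was -0.086. P-values rest on the spread between animals.

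The members and lists were chosen with earlier results of these data known. Named genes were the 10 members, Cx3cr1, the 2 largest increases and 2 largest decreases of each integrin list in TRAP and in old early-induced against young inputs (calls with an average log2 CPM over 1), and genes of counts of 5 or fewer. Genes of the cell type lists were named where a count was small. Some single-gene values are not reported here. Lists also covered mural cells, oligodendrocyte precursors, monocytes and red cells (2 of 5 genes unmatched, Hbb-bs and Hbb-bt). Alternatives were other scalings, no filter, DESeq2 1.42.0, limma 3.58.1 voom, females only, other covariates or groups, the animal block and each library left out in turn.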

Additional observations from a re-analysis of the deposited data

Results flagged for a closer look

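Of 40 sets of values with 4 to 10 libraries or animals, 3 held 1 value far from the others by Dixon's test, where chance alone gives about 2. Itgav in young input replicate 6 was the lowest of its group at a log2 CPM of 4.97, with the next at 5.20. The log2 ratio of TRAP to input of Itga9 was highest in animal 3 at 2.68, with the next at 2.00. Itgb3 in old late-induced input replicate 4 was highest at a log2 CPM of 2.48, with the next at 1.94, and leaving that library out gave the old late-induced against young change of Itgb3 as 0.40 (edgeR, adjusted p = 0.143).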

How the results depend on the processing

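The count of 9 integrin genes called in TRAP was 9 in the fit with the animal as replicate block, which uses the pairing, and 8 to 9 under the other alternatives; the block changed no call. Leaving out single libraries gave 9 in each of 14 fits. The count of 5 in old early-induced against young inputs was 3 in females only and 3 without the count filter, and 3 to 5 with single libraries left out. For old late-induced against young the count of 8 became 6 in females only and 7 to 8 with single libraries left out. The counts of 0 between the old groups and between the sexes were 0 in every alternative. Directions turned only for values near 0. Itga4 in TRAP against input was 0.02 without the filter, 0.004 with limma voom and 0.07 in females only (log2), and -0.04 to 0.03 with single libraries left out. Itgb1 in old early-induced against young was -0.01 in females only. Itga6 between the old groups was 0.0022 with limma voom and 0.01 without sex, and -0.05 to 0.02 with single libraries left out. The cause was not tested. Depth limits Itgal most, with 4 to 137 counts per library.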

Other observations

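Of 7 mural genes tested in TRAP, 0 were higher and 4 lower, Pdgfrb, Kcnj8, Tagln and Vtn (median log2 fold change -0.52), and all 6 oligodendrocyte precursor genes were lower (median -1.30). Of 5 choroid plexus genes 4 were lower, Kl, Folr1, Kcnj13 and Clic6 (median -2.20). The 3 matched red cell genes, Hba-a1, Hba-a2 and Alas2, were lower (median -2.30). In old late-induced against young inputs those 3 red cell genes were higher (median 1.43), with sums of 182 to 451 CPM against 95.2 to 222 CPM. Of 8 neutrophil and monocyte genes 2 were tested in TRAP and both, Ccr2 and Ly6c2, were higher (median 1.51). Neither had an average log2 CPM over 1. Ccr2 passed the count filter in this fit and in no comparison of inputs, so its direction was largely set by the filter. The 8 genes summed to 1.7 to 5.16 CPM in input and 2.67 to 4.62 CPM in TRAP, and these ranges overlapped.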
